A study of Mus musculus with 6 samples.

Results

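Transcripts of 10 circadian clock genes were followed in the brains of mouse pups with and without an active human SRY transgene. The genes were Per1, Per2, Per3, Dbp, Nr1d1, Nr1d2, Arntl, Cry1, Cry2 and Tef, out of 18138 symbols on the array. Every probe that carried one of these symbols was taken, which gave 15 of the 25697 probes in the table. Of these, 11 probes of 9 genes were above background on at least 3 of the 6 arrays and were tested, out of 14215 tested probes in all. Cry1 had a single probe, and it was not above background on any array. Further probes of Nr1d2, Tef and Per2 were also left untested, so that Nr1d2 and Tef rested on 1 probe each and Per2 on 2.

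The groups were 3 hSRY-OFF and 3 hSRY-ON males labelled as strain FVB (kept on an FVB/N background per the methods), taken at P6 (postnatal day 6). Each labelled replicate had 1 bead array of RNA from tissue labelled as brain. All of them carried the Signalox-hSRY transgene, a single copy placed at the H11 locus of chromosome 11 and driven by the ubiquitous CAG promoter. In hSRY-OFF mice a loxP-flanked DsRed cassette blocked hSRY, and in hSRY-ON mice that cassette had been removed in the fertilized egg by Cre recombinase from oocytes of Ddx4-Cre mothers. The hSRY-ON pups used for the arrays did not themselves carry Ddx4-Cre. The transgenic mice formed 1 line, the promoter was not limited to a chosen cell type, and hSRY-ON pups in this study fed poorly and grew slowly. In the paper's account, Cre from the oocyte acted whether or not a pup inherited Ddx4-Cre. Pups of the hSRY-OFF group with an intact transgene would thus have had mothers without Ddx4-Cre. Mother and litter would then have differed along with the group and could not be told apart from it. The sources used here do not give the hour of the day at which the brains were taken, whether the groups were collected together, or the litter of each pup. The part of collection time in the values below was not tested.

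Median deposited intensities ran from 200.2 to 219.8 across the arrays, and 13816 to 14377 probes had a detection p-value under 0.05. The arrays correlated with the others of their group at a mean r of 0.991 to 0.994. On the second principal component, with 18.5% of the variance, hSRY-ON array 3 stood at -22.2, while the other arrays lay between 0.0453 and 8.92. Values that involve this array are therefore given with and without it for the leading probes. Neuronal markers were high in both groups, with a summed log2 signal of 15.5 to 15.6.

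The circadian clock is a feedback loop in which the protein of Arntl (also called BMAL1) pairs with CLOCK and activates genes through E-boxes in their promoters. Among those genes are the Per and Cry genes, whose proteins enter the nucleus and repress the CLOCK pair, and Nr1d1 and Nr1d2, which encode the REV-ERB repressors. REV-ERBs shut off Arntl through ROR elements, so Arntl is known to cycle out of step with the E-box genes, while Dbp and Tef carry the rhythm further through D-boxes. In the brain the master clock lies in the suprachiasmatic nucleus, and weaker rhythms run in many other regions. RNA of brain tissue averages over the regions that the tissue holds, and fewer cells of a type cannot be told apart from less RNA per cell.

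Promoter sequences were searched for the elements named above and for motifs of the cAMP and glucocorticoid pathways. RefSeq windows (build GRCm38.p6), each from 250 bases before to 50 bases after an annotated start, were matched by symbol for 9 members, in 12 windows. Per2 was not matched. The stretches shown are those that held such an element in genes that the arrays measured, each on the strand of its gene, with the element in capitals. Searches covered both strands, and positions count from the annotated start.
Per1 E-box, chr11:69098771-69098800, plus strand: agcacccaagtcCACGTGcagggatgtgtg
Per1 half-site of the cAMP response element, chr11:69100008-69100037, plus strand: gagctcagcggcTGACGTcggtttccctgg
Cry2 E'-box, chr2:92434218-92434247, minus strand: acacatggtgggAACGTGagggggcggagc
Nr1d1 E'-box, chr11:98775388-98775417, minus strand: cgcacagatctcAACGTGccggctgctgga
Tef E-box at the upstream start, chr15:81802534-81802563, plus strand: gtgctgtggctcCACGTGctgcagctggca
Tef E-box at the downstream start, chr15:81811264-81811293, plus strand: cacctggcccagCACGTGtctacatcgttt
Per3 D-box farther from the start, chr4:151044852-151044881, minus strand: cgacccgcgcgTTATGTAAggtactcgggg
Per3 D-box nearer to the start, chr4:151044805-151044834, minus strand: cccgcccgcggTTATGTAAcccccgccgtg
Arntl ROR element, chr7:113207529-113207558, plus strand: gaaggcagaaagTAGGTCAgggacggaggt

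The E-box CACGTG, which reads the same on both strands, began at position -166 from the upstream Per1 start and at -127 and -138 in the 2 Tef windows. It stood in 7.15% of all 32851 RefSeq windows of the same length. The weaker E'-box, CACGTT or its reverse complement AACGTG, began at -166 in Cry2 and at -28 in Nr1d1, and 4.68% of windows held it. The Per3 D-boxes (TTATGTAA or TTACGTAA, in 1.06% of windows) began at -205 and -158. The ROR element of Arntl (TAGGTCA or TGGGTCA, in 6.45% of windows) began at position 31, inside the transcript. The Per1 half-site TGACGT (7.51% of windows) began at -132 from the downstream Per1 start, so the Per1 positions count from different starts. Cry1 also held an E-box and an E'-box, in a promoter whose transcript was not above background here. The windows of Dbp and Nr1d2 held none of these letters, and no member window held the palindromic consensus of the glucocorticoid receptor, found in 0.475% of windows. At so low a share, the lack of a match in so few windows says nothing about the members. A match is a description of letters only.

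None of the 11 tested clock probes passed the test between hSRY-ON and hSRY-OFF. With limma, 0 of 11 had a Benjamini-Hochberg adjusted p under 0.05, where 2.17% of all tested probes did (0.844% higher and 1.32% lower). At an unadjusted p under 0.05 there were 6, 5 of them higher and 1 lower in hSRY-ON, where 20.9% of all tested probes reached that level (10.1% higher and 10.9% lower). The groups did not overlap for 6 of the 11 probes, again 5 higher and 1 lower, where 27.7% of all tested probes did not overlap (13.5% higher and 14.2% lower). The 5 higher probes measured Per1 (both probes), Per2, Nr1d1 and Cry2, and the lower probe measured Dbp. The median log2 difference over the 11 probes was 0.22 against 0.0048 over all tested probes, whose middle 50% lay between -0.14 and 0.14. Such counts describe a short list and are not a test of it.

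Of 18 alternative settings, 6 called 2 to 5 of the 11 probes, and these settings called 6.05% to 10.2% of all tested probes. The other 12 called none of the 11, but in 6 of them there were only 0 or 1 calls over all tested probes, so that their absence of calls says nothing about the members. When the prior variance was made to depend on signal, Per1, by both probes, and Cry2 were called higher and Dbp lower. The count of 6 at an unadjusted p under 0.05 dropped to 3 when any one hSRY-OFF array was removed and to 4 on removal of hSRY-ON array 1 or 2, and it stayed at 6 on removal of hSRY-ON array 3. In the same fits 16% to 17.9%, 16.6% to 19.3% and 22.5% of all tested probes reached that level.

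**Figure D1:**
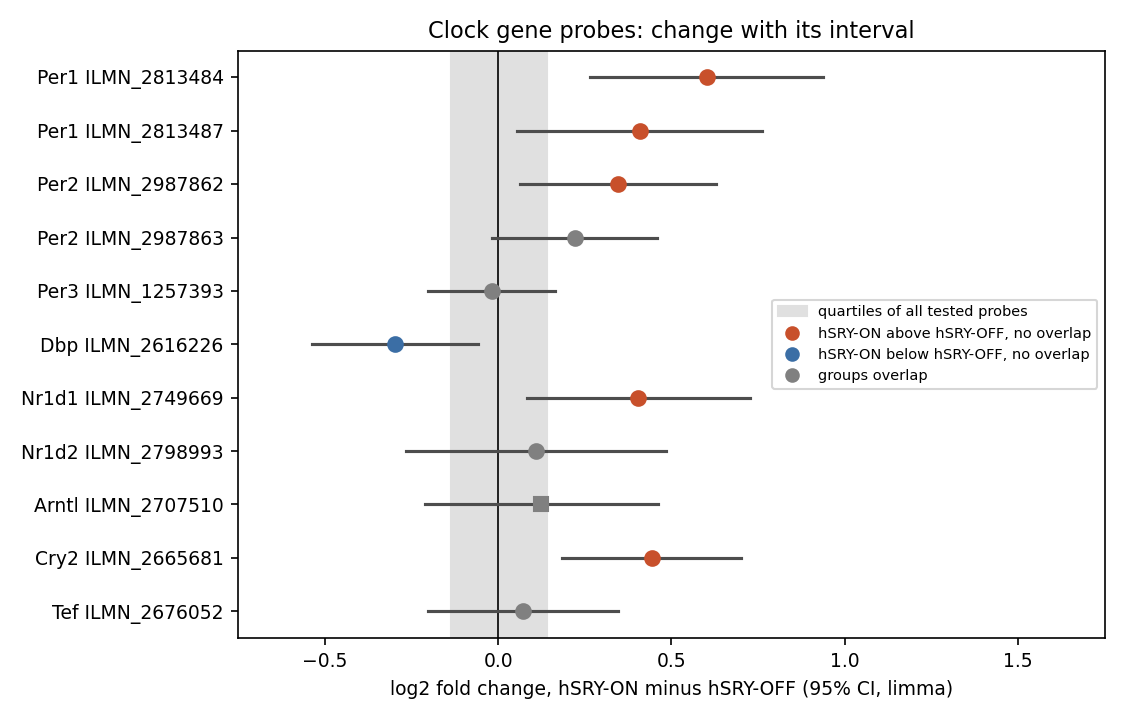
Log2 fold change (hSRY-ON minus hSRY-OFF, x axis) of the 11 tested clock gene probes with its 95% confidence interval from limma. Colour marks whether the 3 arrays of each group overlap, the square is Arntl, and the grey band spans the middle 50% of all tested probes, from -0.14 to 0.14. Per1, Per2, Nr1d1 and Cry2 lie to the right of the band and Dbp to its left.

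The period genes encode repressors of the loop, and Per1 had the largest difference among the members. The Per1 probe ILMN_2813484 read 9.42, 9.13 and 9.12 in hSRY-OFF and 10.10, 9.70 and 9.69 in hSRY-ON, as normalized log2 signal. All 3 hSRY-ON arrays lay above all 3 hSRY-OFF arrays, with hSRY-ON array 1 the highest. The means were 9.23 ± 0.17 and 9.83 ± 0.23 (SD, n = 3), a log2 difference of 0.60 (SE 0.142, 95% CI 0.27 to 0.94, limma adjusted p = 0.078) or 1.52-fold. Without hSRY-ON array 3 the difference was 0.67 (adjusted p = 0.0797). In the deposited signals, before correction and normalization, the same probe read 938, 705 and 684 in hSRY-OFF and 1266, 936 and 941 in hSRY-ON, so that hSRY-OFF array 1 lay level with hSRY-ON arrays 2 and 3.

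The second Per1 probe, ILMN_2813487, gave the same direction. It read 8.48, 8.45 and 8.54 in hSRY-OFF and 9.23, 8.84 and 8.63 in hSRY-ON. The groups did not overlap, but the hSRY-ON arrays were spread more widely, with an SD of 0.30 against 0.04. The log2 difference was 0.41 (SE 0.150, 95% CI 0.05 to 0.76, limma adjusted p = 0.184), with 0.24 on removal of hSRY-ON array 1 and 0.54 on removal of array 3 of that group.

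Per2, the partner of Per1 in the repressor complex, was measured above background by a pair of probes. ILMN_2987862 read 9.16, 8.91 and 8.95 in hSRY-OFF and 9.53, 9.36 and 9.17 in hSRY-ON. The lowest hSRY-ON array lay just above the highest hSRY-OFF array. The log2 difference was 0.35 (SE 0.120, 95% CI 0.06 to 0.63, limma adjusted p = 0.164) and 0.44 without hSRY-ON array 3. ILMN_2987863 read 8.96, 8.87 and 8.87 in hSRY-OFF and 9.18, 9.25 and 8.94 in hSRY-ON. Here hSRY-ON array 3 fell inside the hSRY-OFF range, and the difference of 0.22 (95% CI -0.02 to 0.46, adjusted p = 0.267) did not separate the groups. The remaining Per2 probe, ILMN_1258523, was above background on 1 array of each group only and was not tested.

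Per3, a period gene that the loop can do without, did not follow the other period genes in these values. Its probe ILMN_1257393 read 6.40, 6.49 and 6.38 in hSRY-OFF and 6.40, 6.35 and 6.46 in hSRY-ON, so the groups overlapped throughout. The log2 difference was -0.02 (95% CI -0.20 to 0.16, limma adjusted p = 0.919). This interval does not reach the difference measured for Per1 by ILMN_2813484, but the difference between the 2 genes was not tested.

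**Figure D2:**
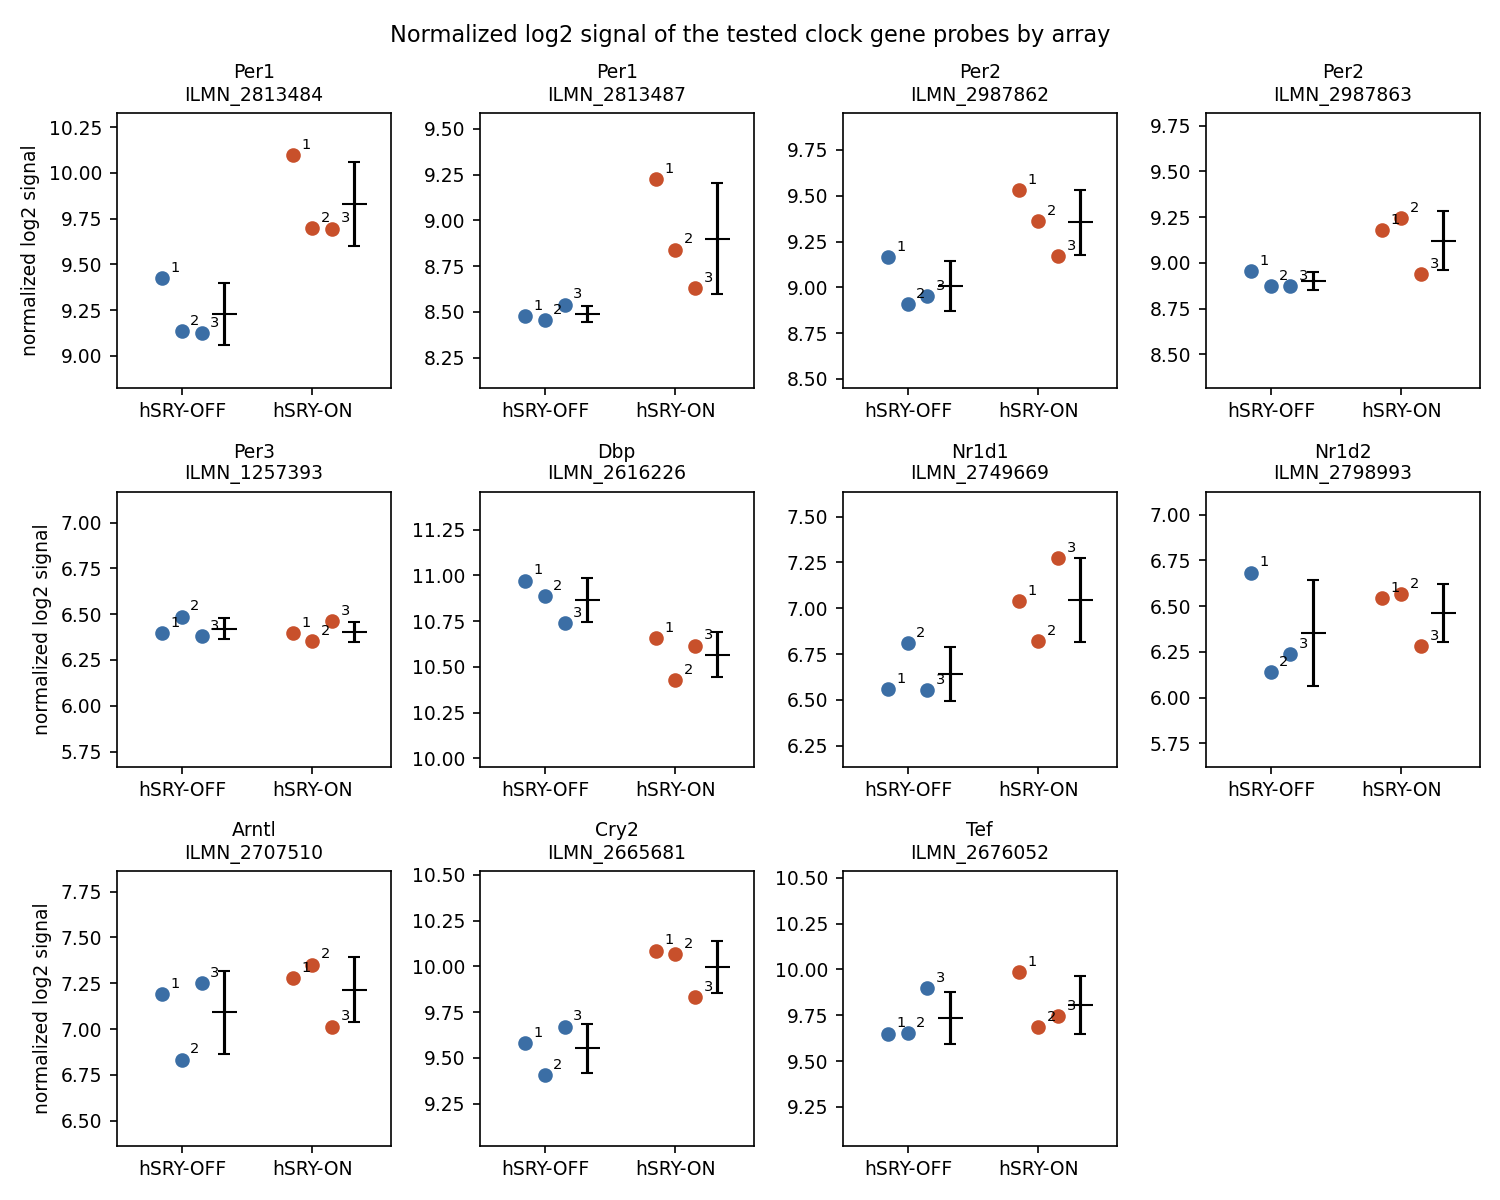
Normalized log2 signal (y axis, same span in each panel) of the tested clock gene probes on the 3 hSRY-OFF and 3 hSRY-ON arrays, each point an array marked with its replicate number and the bars the group mean ± SD. Per1 and Cry2 show hSRY-ON arrays wholly above hSRY-OFF arrays, Dbp shows them wholly below, and Arntl, Per3 and Tef overlap.

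Cryptochromes are the partners of the period proteins and the stronger repressors of CLOCK. Cry2 (ILMN_2665681) read 9.58, 9.41 and 9.67 in hSRY-OFF and 10.09, 10.07 and 9.83 in hSRY-ON. The groups did not overlap, and hSRY-ON array 3 was the lowest of its group. The means were 9.55 ± 0.13 and 9.996 ± 0.141 (SD, n = 3), a log2 difference of 0.44 (SE 0.109, 95% CI 0.18 to 0.70, limma adjusted p = 0.0861) or 1.36-fold. Without hSRY-ON array 3 it was 0.53 (adjusted p = 0.0586). The Cry1 probe ILMN_2618668 had deposited signals of 152 to 163 on the 6 arrays, not above background on any, so no fold change is given for it.

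Nr1d1 and Nr1d2 encode REV-ERBα and REV-ERBβ, which repress Arntl. The Nr1d1 probe ILMN_2749669 read 6.56, 6.81 and 6.55 in hSRY-OFF and 7.04, 6.82 and 7.28 in hSRY-ON. The groups did not overlap, but hSRY-OFF array 2 and hSRY-ON array 2 differed by only about the last digit given. The log2 difference was 0.40 (SE 0.136, 95% CI 0.08 to 0.73, limma adjusted p = 0.157), and 0.29 without hSRY-ON array 3 (adjusted p = 0.235). It was 0.18 with no background correction and 0.27 with an offset of 50, with adjusted p of 0.149 and 0.132. For Nr1d2, the probe ILMN_2798993 read 6.68, 6.14 and 6.24 in hSRY-OFF and 6.54, 6.56 and 6.28 in hSRY-ON. Its groups overlapped and the log2 difference was 0.11 (95% CI -0.27 to 0.48, adjusted p = 0.742). It ran from 0.0021 without hSRY-OFF array 2 to 0.27 without hSRY-OFF array 1. The other Nr1d2 probe, ILMN_2602387, was not above background on any array.

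Dbp, a PAR bZIP activator that binds D-boxes and one of the strongest direct outputs of the clock, was the one member whose arrays were wholly lower in hSRY-ON. Its probe ILMN_2616226 read 10.97, 10.88 and 10.74 in hSRY-OFF and 10.66, 10.43 and 10.62 in hSRY-ON. The means were 10.86 ± 0.12 and 10.57 ± 0.12 (SD, n = 3), a log2 difference of -0.30 (SE 0.101, 95% CI -0.54 to -0.06, limma adjusted p = 0.16), which is 0.813-fold. Without hSRY-ON array 3 it was -0.32 (adjusted p = 0.176). The deposited signals were 2425, 2008 and 1790.3 in hSRY-OFF and 1798, 1449.5 and 1666 in hSRY-ON, and on that scale hSRY-OFF array 3 and hSRY-ON array 1 changed places. Tef, a second PAR bZIP gene with E-boxes in both windows shown above, did not share this direction. Its probe ILMN_2676052 read 9.65, 9.65 and 9.90 in hSRY-OFF and 9.99, 9.69 and 9.75 in hSRY-ON, with overlap and a log2 difference of 0.07 (95% CI -0.20 to 0.34, adjusted p = 0.769). The other Tef probe, ILMN_2715400, was not above background on any array.

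Arntl, the activating arm of the loop, did not separate the groups. Its probe ILMN_2707510 read 7.19, 6.83 and 7.25 in hSRY-OFF and 7.28, 7.35 and 7.01 in hSRY-ON. The lowest array was hSRY-OFF array 2 and the next lowest hSRY-ON array 3. The means were 7.09 ± 0.23 and 7.21 ± 0.18 (SD, n = 3), and the log2 difference was 0.12 (SE 0.143, 95% CI -0.21 to 0.46, limma adjusted p = 0.667). Without hSRY-OFF array 2 it was -0.0031, so the sign of the Arntl difference rested on that array. The interval reaches the differences measured for Cry2 and Nr1d1. It does not reach one as low as that of Dbp or as high as that of Per1 by ILMN_2813484.

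**Figure D3:**
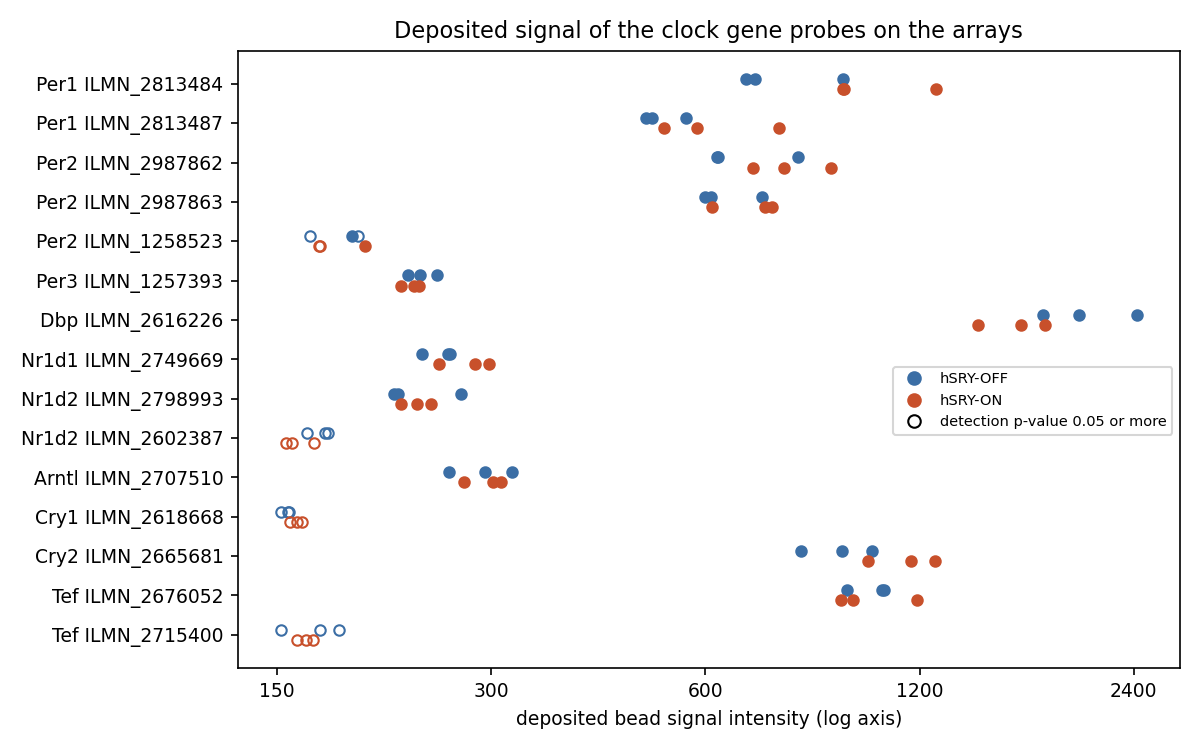
Deposited bead signal intensity (log axis) of all 15 clock gene probes on the 6 arrays, filled where the detection p-value was under 0.05 and open otherwise. The probe of Cry1 and one probe each of Nr1d2 and Tef are open on every array, and the Dbp arrays span 1449.5 to 2425.

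The E-box output genes were then set against Arntl on the same array. Each value was expressed as its log2 difference from the hSRY-OFF mean of its probe, and the median was taken over the 10 tested probes of Per1, Per2, Per3, Dbp, Nr1d1, Nr1d2, Cry2 and Tef. This median was 0.04, -0.06 and -0.05 on the hSRY-OFF arrays and 0.34, 0.28 and 0.09 on the hSRY-ON arrays. The hSRY-ON arrays all lay higher, with hSRY-ON array 3 close to the hSRY-OFF arrays. The Arntl probe shifted by 0.10, -0.26 and 0.16 on the hSRY-OFF arrays and by 0.19, 0.26 and -0.08 on the hSRY-ON arrays. Arntl stood above 0 on hSRY-ON arrays 1 and 2, which had the highest medians, and below 0 on hSRY-ON array 3.

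The median of the E-box probes minus the shift of Arntl was -0.06, 0.20 and -0.21 on the hSRY-OFF arrays and 0.15, 0.02 and 0.17 on the hSRY-ON arrays. The groups overlapped, and their difference of 0.13 was smaller than the SD of 0.21 among hSRY-OFF arrays. Removing 1 array at a time moved it between 0.03 (hSRY-OFF array 3 removed) and 0.25 (hSRY-OFF array 2 removed). Taken probe by probe, 2 of the 10 E-box probes minus Arntl did not overlap between groups, both higher in hSRY-ON, where 11% of all other tested probes minus Arntl did not overlap (1.79% higher and 9.24% lower). They were Cry2, with 0.34, 0.25 and 0.36 on the hSRY-ON arrays against -0.07, 0.11 and -0.04, and the Per1 probe ILMN_2813484, with 0.68, 0.21 and 0.54 against 0.10, 0.16 and -0.26. Dbp minus Arntl differed by -0.42 and overlapped. The count of 2 became 6 when hSRY-OFF array 2 was removed, where 21.7% of all other tested probes did not overlap. It became 4 on removal of hSRY-OFF array 3 (21.3% of the others), 4 on removal of hSRY-ON array 3 (40.1%) and 4 with no background correction (15.7%).

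**Figure D4:**
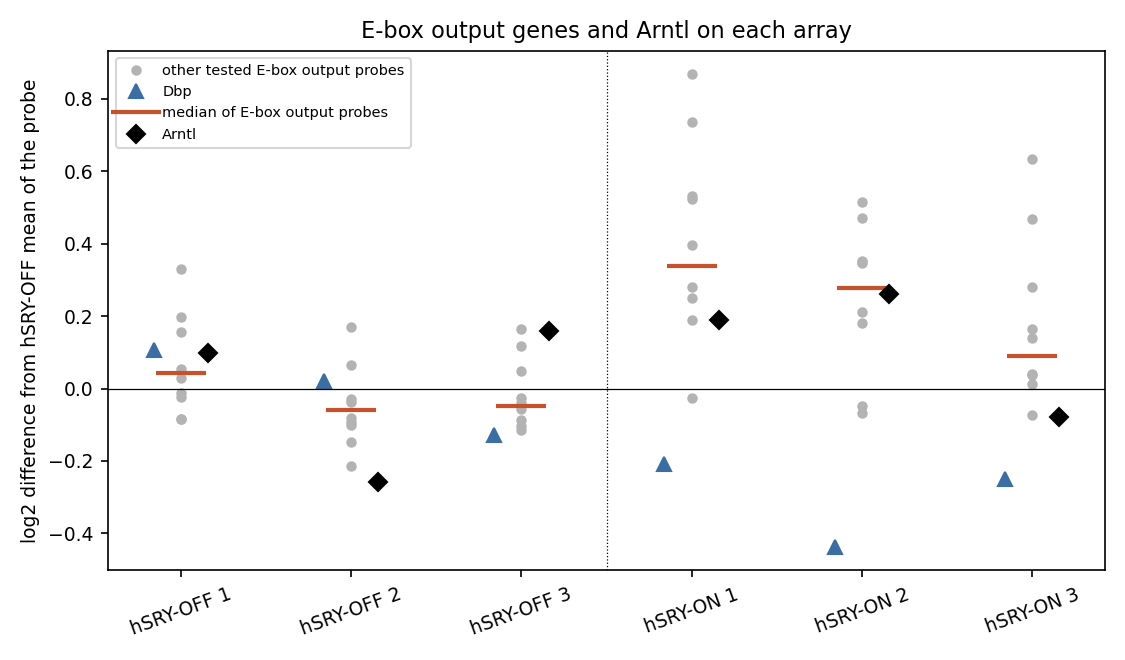
Log2 difference from the hSRY-OFF mean of each probe (y axis) on each of the 6 arrays, for the E-box output probes (grey circles), Dbp (triangles), Arntl (diamonds) and the median of the 10 E-box probes (bars). The bars of the hSRY-ON arrays, from 0.09 to 0.34, lie above those of the hSRY-OFF arrays, Dbp lies below 0 on all hSRY-ON arrays, and Arntl is on both sides of 0 in each group.

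The spread among replicates of the members was slightly above that of the median probe. The SD within the group had a median of 0.14 in hSRY-OFF and 0.16 in hSRY-ON over the 11 tested probes, against 0.11 and 0.13 over all tested probes. It was larger in hSRY-ON for 8 of the 11, as for 59.1% of all tested probes.

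The probes whose pattern over the 6 arrays came nearest to the Per1 probe ILMN_2813484 were found by the root mean square difference of the shifts from the hSRY-OFF mean. The nearest measured Rhebl1 (ILMN_2591469, a difference of 0.0794), and 2210012G02Rik followed (ILMN_1247919, 0.0854). Their log2 fold changes were 0.51 and 0.57, and neither passed the test, with limma adjusted p of 0.106 and 0.0566.

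Beyond the members, 26 other genes of the clock loops were looked up, among them the CLOCK and NPAS2 activators, the ROR activators, the casein kinases and ubiquitin ligases that time the decay of PER and CRY, and further outputs. The array table held 24 of them in 41 probes, and 25 probes of 15 genes were tested. With limma 0 of the 25 passed, 6 had an unadjusted p under 0.05 (3 higher, 3 lower), and 9 did not overlap between the groups. Over all tested probes these shares were 2.17%, 20.9% and 27.7%. The log2 difference was positive for 16 and negative for 9, with a median of 0.09.

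The 3 genes with the lowest p among them were Csnk1e, Gm129 and Btrc. Csnk1e, a kinase that marks PER proteins for decay, read 12.05, 11.85 and 11.96 in hSRY-OFF and 12.32, 12.36 and 12.28 in hSRY-ON (ILMN_2689333). All hSRY-ON arrays were higher, and the log2 difference was 0.37 (SE 0.0837, limma adjusted p = 0.0717). A second Csnk1e probe, ILMN_2712792, was 0.21 higher (adjusted p = 0.238). Gm129, now named Ciart, a repressor of the CLOCK pair, read 6.94, 6.94 and 7.11 in hSRY-OFF and 7.32, 7.36 and 7.91 in hSRY-ON (ILMN_3029489), a log2 difference of 0.53 (SE 0.163, adjusted p = 0.133). A second Gm129 probe, ILMN_3102736, was 0.43 higher (adjusted p = 0.33), with groups that overlapped. Btrc, part of a ubiquitin ligase for PER proteins, read 10.16, 10.11 and 10.03 in hSRY-OFF and 9.87, 9.90 and 9.80 in hSRY-ON (ILMN_3100042), a log2 difference of -0.25 (SE 0.0782, adjusted p = 0.143). A second Btrc probe had the opposite sign, 0.34 (adjusted p = 0.319), but it was dimmer (hSRY-OFF mean 5.85 against 10.10) and its groups overlapped.

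Clock, the partner of Arntl, was read after its values were seen, since its probes disagreed. ILMN_2610973 was lower in hSRY-ON by a log2 difference of -0.20 (limma adjusted p = 0.241), and ILMN_2600964 was higher by 0.41 (adjusted p = 0.363). Neither passed the test, and both showed groups that did not overlap. ILMN_2600964 was the dimmer and noisier of them, with an hSRY-OFF mean of 6.08 (SD 0.52) against 9.92 (SD 0.09) for ILMN_2610973.

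**Figure D5:**
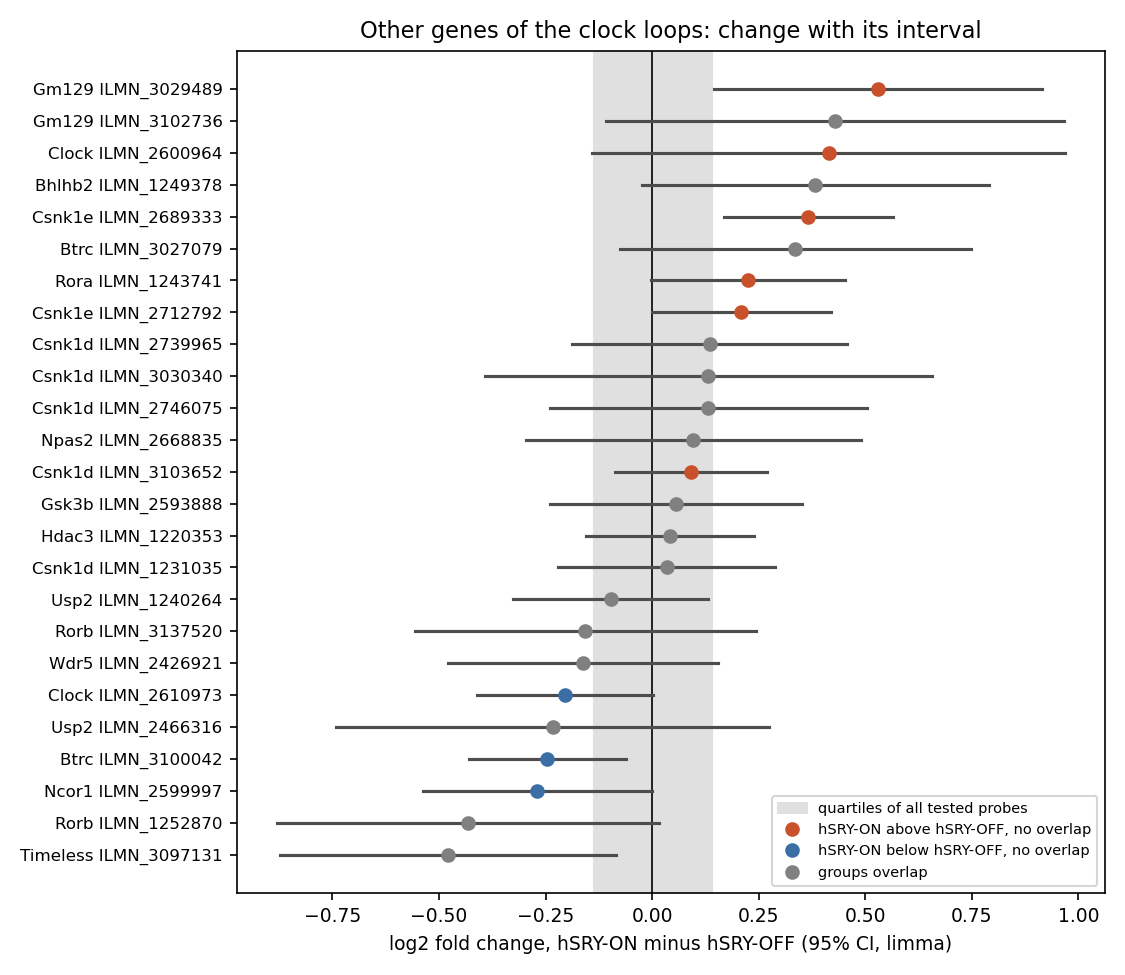
Log2 fold change (hSRY-ON minus hSRY-OFF, x axis) of the 25 tested probes of other clock pathway genes, with 95% confidence intervals from limma. The probes lie on both sides of 0, from -0.48 for Timeless to 0.53 for Gm129, and none passed the test.

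Other transcripts moved between the same arrays, and their part in the clock values was not tested. Per1 is known as a direct target of the glucocorticoid receptor, so a list of 13 tested glucocorticoid-response genes was read beside it. All 16 of its probes had higher means in hSRY-ON, with a median log2 difference of 0.31, and 4 passed the test (Sult1a1, Fam107a, Mt2 and Fkbp5). Over all tested probes 51.1% had a positive difference, and 0.844% passed as higher. The list was written with earlier results of these data known, and it includes Sult1a1, the probe with the lowest p of all those tested. Its counts are therefore a description and not a test of the list. Fkbp5, a chaperone of the receptor, was higher by 0.77 (limma adjusted p = 0.0325). The summed log2 signal of that list was 14.06 to 14.11 in hSRY-OFF and 14.18 to 14.59 in hSRY-ON. Immediate early genes, which respond to neuronal activity as Per1 also does, gave 0 calls over 9 probes, with 6 positive and 3 negative differences and a median of 0.17. Of these, 2 had an unadjusted p under 0.05, both lower, where 20.9% of all tested probes did (10.9% lower). Their summed log2 signal was 11.73 to 11.84 in hSRY-OFF and 11.72 to 12.08 in hSRY-ON.

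Markers of the cells that make up the tissue also differed, to be read against 1.32% of all tested probes that passed as lower and 0.844% as higher. Cell cycle genes were lower for 14 of 15 probes, 7 of which passed the test, and their summed log2 signal was 12.62 to 12.78 in hSRY-OFF and 11.66 to 12.14 in hSRY-ON. Myelin genes were lower for 13 of 14 probes, 3 of which passed, at 15.12 to 15.49 against 14.76 to 14.80. Astrocyte genes were lower for 6 of 8 probes, 2 of which passed, at 15.10 to 15.12 against 14.97 to 15.17. Choroid plexus genes were higher for 10 of 11 probes, 1 of which passed, at 13.96 to 14.22 against 14.25 to 14.56. Neuronal genes were 3 higher and 3 lower, with 0 calls and 1 at an unadjusted p under 0.05 (20.9% of all tested probes), and the summed signals overlapped.

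Genes of small tissues known for their rhythms were read too. Of 6 tested probes for genes of the suprachiasmatic nucleus, 0 passed and 1 had an unadjusted p under 0.05, where 2.17% and 20.9% of all tested probes did. This was Avp, the vasopressin gene, with a log2 difference of 1.20 (limma adjusted p = 0.068), a gene also expressed in other hypothalamic nuclei. The differences of the 6 probes were 3 positive and 3 negative with a median of 0.02, and the 5 other than Avp lay between -0.12 and 0.22. The summed log2 signal of that list was 10.12 to 10.17 in hSRY-OFF and 10.33 to 10.89 in hSRY-ON. Without Avp it was 9.50 to 9.68 and 9.55 to 9.59, so the separation of the sums rested on Avp. None of the 5 probes for pineal genes was above background on more than 1 array. Endothelial genes (7 probes, 5 lower), microglial genes (9 probes, 6 higher) and erythroid genes (4 probes, 3 lower) gave 0 calls. At an unadjusted p under 0.05 there were 5 endothelial probes (4 lower, 1 higher), 3 microglial probes, all higher, and 0 erythroid probes, beside 20.9% of all tested probes.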

How the data were processed

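The authors deposited, for each probe and array (Illumina MouseRef-8 v2.0), a mean bead signal intensity on a linear scale and a detection p-value. The steps of the deposited p-values correspond to 798 negative controls per array. The deposited intensities had not been quantile normalized. For normalization and testing, TCC is named in the methods and limma in the submitters' processing notes, both without settings. TCC was not used here.

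In R 4.3.3 with limma 3.58.1, intensities were background corrected (normexp, with negative controls inferred from detection p-values, offset 16), put on the log2 scale and quantile normalized. This correction widens the spread of dim probes. A probe entered the fit where at least 3 of 6 arrays gave it a detection p-value under 0.05. It was tested with lmFit and eBayes (two-sided, group as the only term), adjusted by Benjamini-Hochberg over all tested probes, and called at an adjusted p under 0.05. Probes of 1 gene stayed separate. Summed levels of a list are log2 of the sum of its normalized linear signals. The number of arrays, 3 a group, limits the precision. The paper describes biological triplicates, 3 male mice a group, without giving their litters. The p-values set each group difference against the spread between these samples only.

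Every member probe is named. Of other clock genes, called probes or else the 3 with the lowest p were named, and then the 3 probes nearest in pattern to the member with the lowest p, of which 1 is not reported here. The members, lists and rules were chosen with earlier results of these data known. Alternatives changed the background correction, normalization, filter, prior, weights, replicate block, threshold, probes per symbol and arrays used. Promoter windows are from RefSeq (GRCm38.p6), and motifs were searched with Python 3.11.15.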

Additional observations from a re-analysis of the deposited data

How the results depend on the processing

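No tested clock probe was called in the fit reported above, nor with median scaling, cyclic loess, no filter on dim probes, array weights, 1 probe per symbol, or any single array left out (0 to 0 calls). Calls among the members were 4 with no background correction, 2 with normexp at an offset of 50, 2 with detection on all arrays at a p-value under 0.01, 4 with a prior that follows signal, 5 with that prior made robust, and 2 at an adjusted p under 0.10. In the same order, the other clock pathway genes had 1, 1, 1, 3, 4 and 1 calls (0 to 0 with an array left out), and all tested probes 9.26%, 6.05%, 6.07%, 10.1%, 10.2% and 7.03%. Over all 18 alternatives the adjusted p ran from 0.00148 to 0.204 for Per1 (ILMN_2813484), from 0.00472 to 0.222 for Cry2 and from 0.0238 to 0.327 for Dbp. Over all tested probes there were 308 calls (2.17%), against 480 with array weights (3.38%), 375 with 1 probe per symbol (3.56%) and 0.479% of probes with no filter. Leaving out any array but hSRY-ON array 3 left 0 or 1 calls, and leaving out that one gave 417, so the lack of member calls says little in the fits with 0 or 1 calls, while the fit without hSRY-ON array 3 called 2.98% of all tested probes and no member.

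Among the tested members, signs turned only near 0. With an array left out, Arntl ran from -0.0031 to 0.23, Per3 from -0.048 to 0.01, Nr1d2 from 0.0021 to 0.27 and Tef from -0.02 to 0.15. Arntl was -0.0031 without hSRY-OFF array 2, Per3 was 0.01 (0.0139) without hSRY-OFF array 2 and 0.0065 without hSRY-ON array 2, and Tef was -0.02 (-0.0189) without hSRY-ON array 1. The difference of the E-box median minus Arntl was 0.03 to 0.25 with an array left out and 0.10 to 0.12 under other scalings and corrections. With 3 arrays a group, differences near 0.1 on the log2 scale could not be resolved for probes such as Arntl (SE 0.143).

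Replicate numbers are shared by the groups, but same-numbered arrays deviated together only weakly (residual r of 0.0404, 0.0294 and 0.0251), so the numbers were not taken as pairs. Each array did correlate best with its own number, as a hint from the data only. With a replicate block the fit gave 0 calls among the members (6 at an unadjusted p under 0.05), 0 among the other clock genes (4 at that level) and 0 over all tested probes, of which 20.4% reached that level.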
